A study of Mus musculus with 4 samples.

Results

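The rows described here are the mouse pseudogenes that carry a name of their own, that is, every row of the count table whose gene symbol ends in "-ps" with or without a number, such as Tpt1-ps6. There were 213 such rows among the 12067 rows of the table. For 199 of them the gene named before the "-ps", called the parent below, was also a row, and these pseudogenes shared 98 parents. The other 14 had no parent row under that symbol. Pseudogenes known only by a Gm number were left out.

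KL cells (Lin-cKIT+Sca-1-), a bone marrow fraction rich in myeloid progenitors, were profiled by Quant-seq, which sequences the 3′ ends of polyadenylated RNA. Donors carried the floxed allele Bcorfl/y. The BcorΔE9-10 donors also carried scl-Cre-ERT, a tamoxifen-inducible Cre driven by a stem cell enhancer of Scl, and the BcorWT donors carried no Cre. By the study's methods, all donors were male and received tamoxifen, and whole bone marrow was placed in sub-lethally irradiated female Ptprca recipients, whose own marrow is not fully removed by such a dose. Donor-type KL cells were sorted 20 weeks after transplantation, with 2 libraries for each genotype. The labels do not say whether the 2 libraries of a genotype came from separate recipients or donors, so p-values measure only the spread between these libraries.

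A processed pseudogene is a copy of a messenger RNA that was reverse transcribed and inserted back into the genome. Such copies lack introns and usually lack the parent's promoter, and they are most numerous for short, abundantly expressed genes, above all those of the ribosome. A young copy can differ from its parent by only a few bases, so that a short read from the parent can also align to the copy, and the reverse. A count on a pseudogene row is therefore a count of reads assigned there, and not by itself evidence of a transcript made at that locus.

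The name did not in all cases match the annotation. In GENCODE M21 (GRCm38), which held 212 of the 213 symbols (Cox20-ps was the exception), 186 were annotated as processed pseudogenes and 8 as transcribed processed pseudogenes. A further 10 were unprocessed pseudogenes, 5 of them transcribed. The annotation gave 6 as protein coding (Ftl1-ps1, Nutf2-ps1, Rpl10-ps3, Rpl36a-ps1, Rpl9-ps6 and Rps12-ps3), Slc2a4rg-ps as a transcribed unitary pseudogene and Tmem250-ps as a long non-coding RNA. A single exon was annotated for 192 members, 25 lay on the X chromosome, and 10 shared a chromosome with their parent. On the same strand, 27 overlapped another annotated gene, either within its intron or across its exon. The parents were mainly ribosomal: 140 of the 213 members had a cytoplasmic ribosomal protein parent.

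The copies were close to their parents. Over the 197 members with at least 50% of their length aligned to the parent, the median identity was 98.7% and the lowest 83.7%. Identity was 99% or more for 80 of them and 100% for 21. Reads were 75 bases long, and so each member was cut into all its 75-base windows and each window was looked for in the transcripts of other genes. In the median member 50.5% of windows occurred without a mismatch in another gene, and 38.2% occurred in the parent. For 28 members every window occurred elsewhere, and for 15 none did. The closest coding gene was the named parent for 195 members. For the other 18 it was another gene or none was found, and Rpl18-ps1 was one of these.

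The following stretches of 60 coding bases show at how many bases some of the copies described below differ from the parent. Over their aligned length, the copies compared here ran from 94.4% identity (Rps12-ps24) to 100% (Rps6-ps4 among others). They were read from the GENCODE M21 transcripts, 5′ to 3′ on the strand of the gene. In a pseudogene, capitals mark bases that differ from the gene above it. In that gene, capitals mark every position at which any copy compared with it differs. The first set is Tpt1 (translationally controlled tumour protein), with its last stretch before the stop codon at chr14:75847301-75847360 (+). Tpt1-ps3 and Tpt1-ps6 were identical to it there, and Tpt1-ps5, at chr9:37696971-37697030 (+), was not.
Tpt1: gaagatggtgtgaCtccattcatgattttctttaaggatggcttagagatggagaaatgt
Tpt1-ps5: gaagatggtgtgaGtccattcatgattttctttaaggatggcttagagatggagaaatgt

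Within the stretch of Tpt1 that differed most among its copies, at chr14:75846270-75846329 (+), Tpt1-ps6 at chrX:101768704-101768763 (+) had 3 differing bases and Tpt1-ps5 at chr9:37696684-37696743 (+) had 2, whereas Tpt1-ps3 had none.
Tpt1: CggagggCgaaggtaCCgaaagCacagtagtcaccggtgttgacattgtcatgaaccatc
Tpt1-ps5: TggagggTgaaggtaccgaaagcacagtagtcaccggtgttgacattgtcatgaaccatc
Tpt1-ps6: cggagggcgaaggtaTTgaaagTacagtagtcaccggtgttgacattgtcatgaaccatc

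Rps10, a protein of the small ribosomal subunit, and Rps10-ps1 at chr3:95622674-95622733 (+) differed at 2 bases in a stretch that ends 54 bases before the end of the coding sequence and crosses an exon junction in Rps10.
Rps10: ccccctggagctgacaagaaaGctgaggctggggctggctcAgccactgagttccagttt
Rps10-ps1: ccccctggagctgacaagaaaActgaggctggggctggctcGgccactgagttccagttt

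In the Rps6 set, the stretch with the most differences is shown because copies that differ there stood on opposite sides of the comparison. Rps6-ps1 at chr15:76337908-76337967 (+) had 4 differing bases and Rps6-ps3 at chr9:53689932-53689991 (-) had 2. Rps6-ps4 at chr2:75191471-75191530 (-) had none, and over its whole aligned length it was 100% identical to the parent. In the last 60 coding bases before the stop codon, Rps6-ps3 and Rps6-ps4 did not differ from Rps6 and Rps6-ps1 differed at 1 base.
Rps6: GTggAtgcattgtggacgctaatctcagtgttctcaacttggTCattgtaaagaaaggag
Rps6-ps1: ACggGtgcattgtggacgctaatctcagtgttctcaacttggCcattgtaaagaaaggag
Rps6-ps3: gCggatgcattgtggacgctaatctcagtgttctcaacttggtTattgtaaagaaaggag

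In the last 60 coding bases before the stop codon, Rps12-ps3, Rps12-ps9, Rps12-ps10 and Rps12-ps24 did not differ from Rps12. The stretch of Rps12 with the most differences lies at chr10:23785595-23785654 (-). There Rps12-ps24 at chr8:36025995-36026054 (+) had 5 differing bases and Rps12-ps10 at chr2:122220250-122220309 (+) had 1, whereas Rps12-ps3 and Rps12-ps9 had none.
Rps12: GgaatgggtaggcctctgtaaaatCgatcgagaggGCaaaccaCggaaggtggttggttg
Rps12-ps10: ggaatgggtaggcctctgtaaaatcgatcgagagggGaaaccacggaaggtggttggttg
Rps12-ps24: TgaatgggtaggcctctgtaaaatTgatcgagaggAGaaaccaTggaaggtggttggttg

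The libraries held between 3825289.5 and 6253100.5 counts, and the named pseudogenes took 1.20% to 1.57% of them. Levels are given as CPM, counts scaled to a common library size with edgeR's TMM factors. Bcor itself stood at 19.2 and 18.4 CPM in the BcorΔE9-10 libraries and at 16.9 and 14.9 CPM in the BcorWT libraries, but reads at the 3′ end cannot show a deletion of internal exons. All 10 listed markers of KL cells were rows of the table and none of the 4 T cell markers was. The KL markers summed to 11239 and 8499 CPM in BcorΔE9-10 and to 11383 and 11601 CPM in BcorWT. Among them Myb was higher and Prtn3 and Cd34 were lower in BcorΔE9-10 without overlap. Of 4 stem cell markers, Ly6a and Hlf were present, with sums of 11.5 and 14.2 CPM in BcorΔE9-10 and 17.8 and 11.1 CPM in BcorWT. Of 5 B cell markers, Cd79b and Ebf1 were present, with sums of 11.3 and 11.4 CPM in BcorΔE9-10 and 17.5 and 9.41 CPM in BcorWT. All 7 markers of mature granulocytes, which the lineage gate should remove, were present, and their summed level ran from 63282 to 155010 CPM in BcorΔE9-10 and from 94304 to 143290 CPM in BcorWT. All 6 eosinophil and mast cell markers were lower in both BcorΔE9-10 libraries than in either BcorWT library, with sums of 259 and 221 CPM against 541 and 672 CPM. The 5 of 7 erythroid markers that were rows of the table were all higher, with sums of 77.4 and 72.5 CPM against 19.6 and 46.7 CPM. Xist, expressed by female cells, stood at 2.40 and 3.91 CPM in BcorΔE9-10 and at 18.7 and 19.0 CPM in BcorWT. The 4 listed Y-linked genes summed to 103.3 and 102.7 CPM in BcorΔE9-10 and to 106.9 and 49.7 CPM in BcorWT. The row Gm42418 took 16.3% and 14.3% of the counts in BcorΔE9-10 and 27.9% and 1.43% in BcorWT. The part of these in the results below was not tested, apart from the refit without Gm42418.

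Members ranged from 1.5 to 920 CPM in their mean over the 4 libraries, with a median of 18.4 CPM. Their counts were concentrated in a few rows, the 10 highest holding 40.0% of them. In a single library a count of 3 corresponded to between 0.480 and 0.784 unscaled CPM, and 37 members had fewer than 10 counts in at least 1 library. Csnk2a1-ps was the single member with a count of 0 in a library.

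Across genotypes, the median change of the named pseudogenes over the 4 libraries was close to that of all rows. The median log2 fold change of BcorΔE9-10 against BcorWT was -0.03 over members, 0.09 over parents and -0.03 over all rows, and 105 members had a higher and 108 a lower fitted level in BcorΔE9-10. The median over members was -0.20 without BcorΔE9-10 replicate 1 and 0.11 without BcorWT replicate 1, beside -0.04 and 0.02 over all rows. The members were, however, more widely scattered than their parents. The median size of the log2 fold change was 0.55 over members, 0.26 over parents and 0.33 over all rows. A change of more than 1 on the log2 scale was fitted for 54 members (25.4%), for 1 parent (1.02%) and for 8.68% of all rows. A change of more than 2 was fitted for 17 members (7.98%) and for 1.44% of all rows.

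The 2 libraries of a genotype were scattered in the same way. The median size of the log2 difference between the BcorΔE9-10 libraries was 0.56 over members, 0.26 over parents and 0.31 over all rows. Between the BcorWT libraries it was 0.68, 0.40 and 0.57. A difference of more than 1 between the BcorΔE9-10 libraries was found for 29.1% of members, 3.06% of parents and 8.92% of all rows, and between the BcorWT libraries for 31.5%, 12.2% and 24.3%. Levels of members and all rows were alike (median 18.4 and 19.1 CPM), whereas parents were far more abundant (median 405 CPM).

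**Figure D1:**
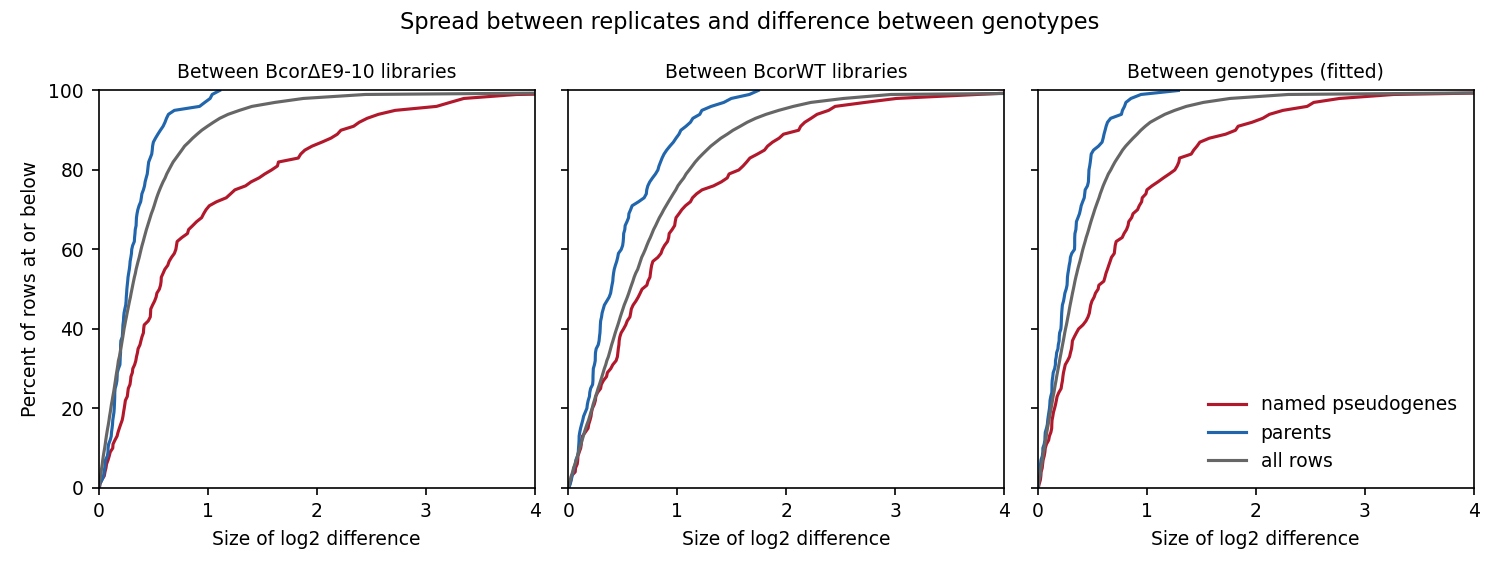
Cumulative percent of rows (vertical axis) at or below a given size of log2 difference (horizontal axis, drawn to 4) between the 2 BcorΔE9-10 libraries, between the 2 BcorWT libraries, and between genotypes as fitted by edgeR, for the 213 named pseudogenes, their 98 parents and all 12067 rows. The pseudogene curve lies to the right of the other curves over most of its length in each panel, with medians of 0.56, 0.68 and 0.55.

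No member passed an adjusted p of 0.05 in edgeR's quasi-likelihood test, against 2 rows (0.0166%) of the table. The lowest Benjamini-Hochberg adjusted p was 0.0869, for Rpl18-ps1. At an unadjusted p of 0.05, 15 members were higher and 21 lower in BcorΔE9-10. Together these were 36 of 213, or 16.9%, where the same threshold took 1.34% of all rows as higher, 3.07% as lower and 4.42% in either direction. Without BcorWT replicate 1 the contrast was small, at 62 members (29.1%) and 25% of all rows. The shares were 18.8% of members and 2.01% of all rows without BcorΔE9-10 replicate 1, 16.4% and 3.1% without BcorΔE9-10 replicate 2, and 22.5% and 5.71% without BcorWT replicate 2. DESeq2 called 8 members (3.76%) at an adjusted p of 0.05, where it called 0.356% of all rows. These were Rpl18-ps1, Rpl15-ps3 and Rpsa-ps9 as lower and Tpt1-ps6, Rps10-ps1, Rpl35a-ps6, Rpl19-ps11 and Rpl7a-ps3 as higher. Limma-voom called none. Both libraries of one genotype lay beyond both of the other for 31 members as higher and 43 as lower in BcorΔE9-10, together 34.7% of members, close to the 16.8%, 17.1% and 33.9% of all rows. At an adjusted p of 0.05, edgeR called 18 members (8.45%) without BcorWT replicate 1, where it called 4.94% of all rows. It called 6 members (2.82%) without BcorWT replicate 2 and 7 (3.29%) without BcorΔE9-10 replicate 2, against 0.249% and 0.282% of all rows. Without BcorΔE9-10 replicate 1 it called 0 members and 0.0497% of all rows.

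**Figure D2:**
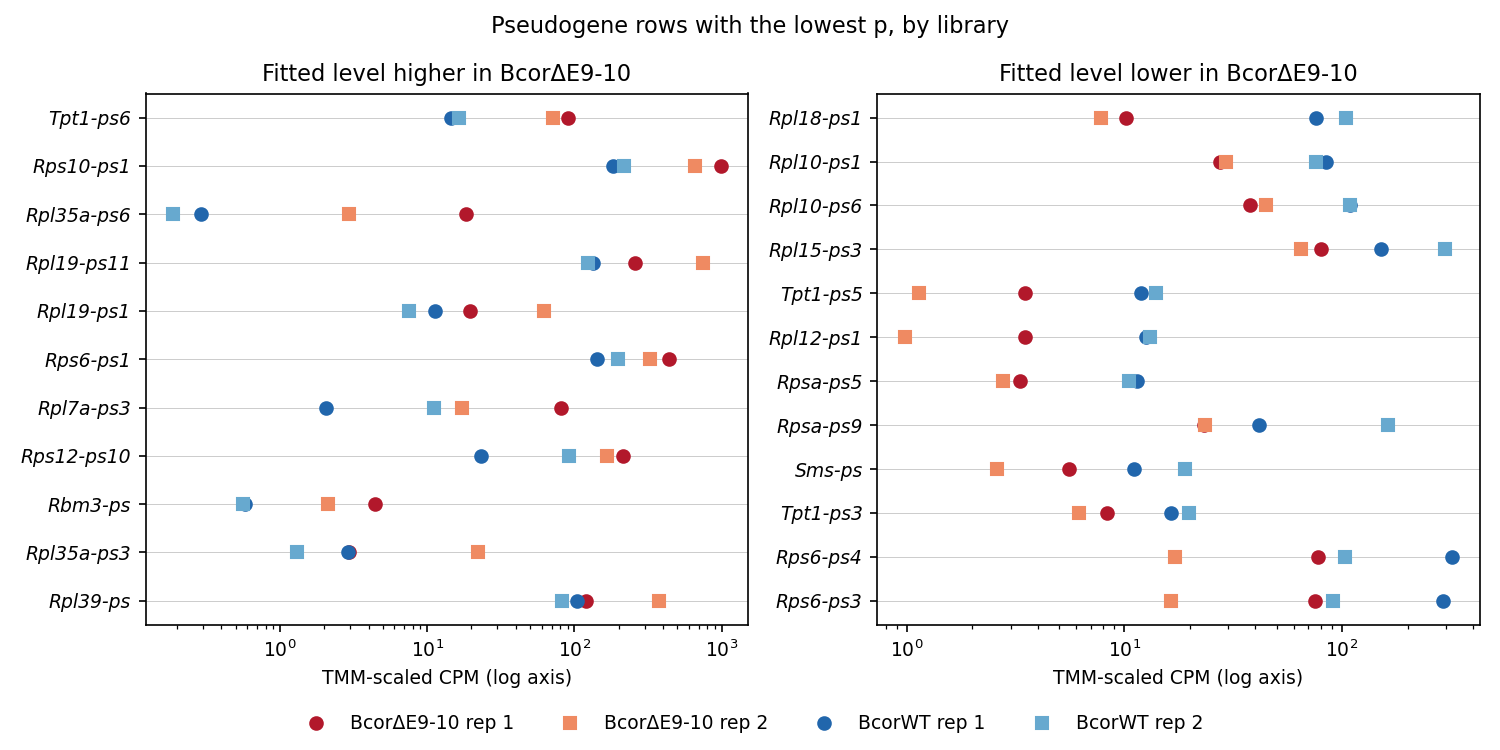
TMM-scaled CPM (log axis) of 11 members with low p that were higher (left) and the 12 with the lowest p that were lower (right) in BcorΔE9-10, 1 point per library (red and orange, BcorΔE9-10 replicates 1 and 2; dark and light blue, BcorWT replicates 1 and 2). The libraries of a genotype lie close together for Tpt1-ps6 and Rpl18-ps1, and a single BcorΔE9-10 library stands apart for Rpl35a-ps3 (22.3 CPM).

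Of the copies of Tpt1, an abundant protein that binds microtubules and calcium, one was higher and both others were lower in BcorΔE9-10. Tpt1-ps6 (chrX:101768535-101769057) stood at 90.6 and 71.4 CPM in BcorΔE9-10 and at 14.6 and 16.4 CPM in BcorWT. The genotypes were well separated, the log2 fold change being 2.38 ± 0.34 (SE, n = 2 per genotype, adjusted p = 0.193 in edgeR), and this estimate ran from 2.20 to 2.55 when any 1 library was left out. Tpt1-ps5 stood at 3.51 and 1.14 CPM against 12 and 13.9 CPM, a log2 fold change of -2.48 ± 0.62. Tpt1-ps3, which is 100% identical to the parent, stood at 8.32 and 6.19 CPM against 16.4 and 19.8 CPM, a log2 fold change of -1.32 ± 0.41. The parent was far more abundant, at 4082 and 3396 CPM against 3538 and 3023 CPM, and its libraries overlapped between the genotypes (log2 fold change 0.19 ± 0.36). Tpt1-ps6 thus took 2.17% and 2.06% of the counts of the pair it forms with Tpt1 in BcorΔE9-10 and 0.411% and 0.539% in BcorWT. The sum of Tpt1 and its copies gave a log2 fold change of 0.20 ± 0.36.

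Rps10-ps1 (chr3:95622278-95622772) was the most abundant member with an unadjusted p under 0.05. It stood at 987 and 659 CPM in BcorΔE9-10 and at 183 and 217 CPM in BcorWT, with 2.04 ± 0.37 as its log2 fold change (adjusted p = 0.419, edgeR; 1.72 to 2.31 with any 1 library left out). Both BcorΔE9-10 libraries lay well above both BcorWT libraries. Rps10 stood at 1579 and 1374 CPM against 1337 and 1967 CPM and did not separate the genotypes (log2 fold change -0.16 ± 0.36). The other copy, Rps10-ps2, had 125 CPM in BcorΔE9-10 replicate 1 alone and between 7.66 and 21.6 CPM in the other libraries. Summed, the family gave a log2 fold change of 0.34 ± 0.38.

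Rpl18-ps1 (chr1:60900898-60901422) had the lowest p of all members. It lies on the same strand within an intron of Ctla4, a T cell inhibitory receptor, which was not a row of the table. The pseudogene stood at 10.2 and 7.82 CPM in BcorΔE9-10 and at 75.6 and 105 CPM in BcorWT, and no library came near those of the other genotype. The log2 fold change was -3.32 ± 0.37 (unadjusted p = 2.2e-05, adjusted p = 0.0869, edgeR quasi-likelihood test). It ran from -3.54 to -3.07 with any 1 library left out. Rpl18, the gene its symbol names, had a log2 fold change of -0.34, and no share of a pair is given because Rpl18 was not the closest gene.

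The Rps6 family, named for a small subunit protein phosphorylated downstream of mTOR, was split. Rps6 stood at 507 and 518 CPM in BcorΔE9-10 and at 318.9 and 100.7 CPM in BcorWT, a log2 fold change of 1.29 ± 0.52 (unadjusted p = 0.039, edgeR) that was 0.68 without BcorWT replicate 2 and 2.34 without BcorWT replicate 1, where it was called (adjusted p = 0.011, edgeR). Rps6-ps1 ran in the same direction, at 438 and 328 CPM against 142 and 197 CPM (1.18 ± 0.35). Rps6-ps4 ran in the opposite direction, at 77.6 and 17.1 CPM against 321 and 103 CPM (-2.16 ± 0.76). Rps6-ps3 followed Rps6-ps4 closely, at 75 and 16.3 CPM against 291 and 91.3 CPM (-2.06 ± 0.76). In either genotype the libraries of Rps6-ps3 and Rps6-ps4 differed by about as much as the genotypes did: leaving out BcorWT replicate 1 gave -1.01 and -1.13, and leaving out BcorΔE9-10 replicate 1 gave -3.55 and -3.63. As a share of the pair with Rps6, Rps6-ps4 took 13.3% and 3.20% in BcorΔE9-10 and 50.2% and 50.6% in BcorWT. Summed over the parent and its 4 copies the difference was small, with a log2 fold change of 0.32 ± 0.44 that ran from -0.14 without BcorWT replicate 2 to 1.00 without BcorWT replicate 1.

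Rps12 had 9 copies in the table, and most of its counts lay on them. Copies took between 87.4% and 92.6% of the family's counts in each library. Rps12-ps3, annotated as protein coding, stood at 1045 and 752 CPM in BcorΔE9-10 and at 1087 and 795 CPM in BcorWT. Rps12-ps9 gave nearly the same values, 1046 and 763 CPM against 63.7 and 789 CPM, in every library but BcorWT replicate 1. In that library Rps12-ps3 had 3723 counts and Rps12-ps9 218. The log2 fold change of Rps12-ps9 was 1.08 ± 0.90, and it was 0.19 without BcorWT replicate 1 and 3.83 without BcorWT replicate 2. Rps12-ps10 and Rps12-ps24 were also lowest there. Rps12-ps10 stood at 213 and 166 CPM against 23.4 and 92.4 CPM, a log2 fold change of 1.70 ± 0.58 that was 1.03 without BcorWT replicate 1 and 3.02 without BcorWT replicate 2. Rps12-ps24 stood at 198 and 149 CPM against 14.6 and 82.6 CPM, a log2 fold change of 1.82 ± 0.68 that was 1.07 and 3.57 under the same omissions. Without BcorWT replicate 2, Rps12-ps9, Rps12-ps10 and Rps12-ps24 were each called (adjusted p = 0.0046, 0.0074 and 0.0042, edgeR). Rps12 stood at 201 and 171 CPM against 176 and 168 CPM, with overlapping genotypes. The summed family gave a log2 fold change of 0.50 ± 0.38.

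**Figure D3:**
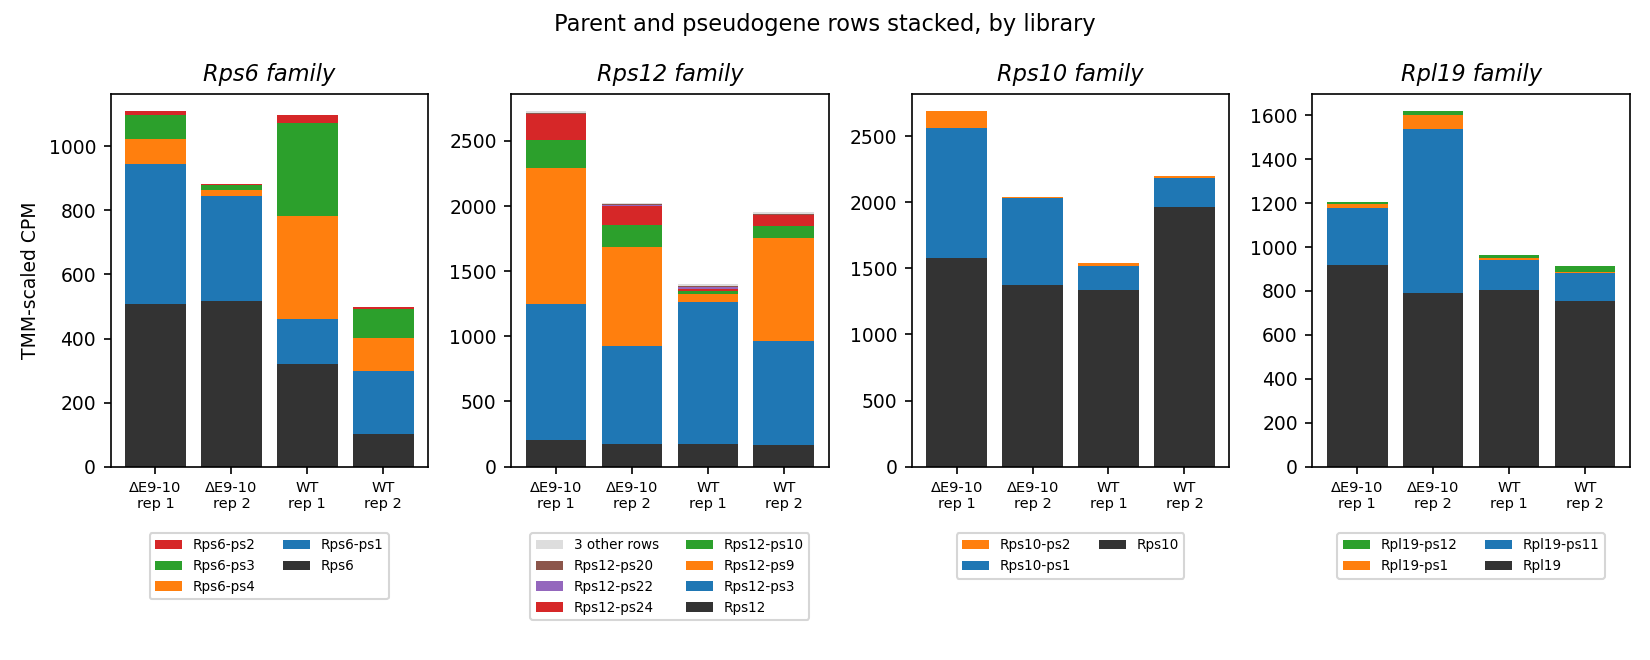
TMM-scaled CPM of the parent row (black) and its pseudogene rows (colours) stacked for the Rps6, Rps12, Rps10 and Rpl19 families, 1 bar per library, with the smallest rows of Rps12 merged. The bars divide differently between libraries: Rps12-ps9 stands at 1046, 763 and 789 CPM in 3 libraries and at 63.7 CPM in BcorWT replicate 1, and Rpl19-ps11 reaches 750 CPM in BcorΔE9-10 replicate 2.

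Among the other large subunit copies that were higher in BcorΔE9-10, a single library often carried the difference. Rpl19-ps11 stood at 258 and 750 CPM against 135 and 124 CPM, a log2 fold change of 1.96 ± 0.51 that was 1.00 without BcorΔE9-10 replicate 2. Rpl19-ps1 stood at 19.6 and 62.3 CPM against 11.4 and 7.53 CPM (2.13 ± 0.57, and 1.06 without the same library). Rpl39-ps stood at 120 and 378 CPM against 105 and 81.9 CPM (1.42 ± 0.53, and 0.37 without it). In all 3 of these rows BcorΔE9-10 replicate 2 was the highest library, and BcorΔE9-10 replicate 1 was next. Rpl7a-ps3 stood instead highest in BcorΔE9-10 replicate 1, at 80.6 and 17.3 CPM against 2.04 and 11.1 CPM. Its log2 fold change of 2.83 ± 0.86 was 1.36 without BcorΔE9-10 replicate 1 and 4.56 without BcorWT replicate 2. Their parents Rpl19, Rpl39 and Rpl7a gave log2 fold changes of 0.13 ± 0.33, 0.20 ± 0.33 and 0.30 ± 0.41, with overlapping genotypes.

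Rpl35a-ps3 and Rpl35a-ps6 carried the same sequence, every 75-base window of either occurring in the other, and yet their counts differed. Rpl35a-ps6 had 100 and 18 counts in BcorΔE9-10 and 1 and 1 in BcorWT. Scaled for depth, the ratio of these summed counts was 44.7, with an exact 95% interval for counting error alone of 12.1 to 373. The interval pools the libraries of a genotype and leaves out the spread between them. The row was picked out partly for its low BcorWT counts, so the interval is not evidence of a genotype difference. The fitted log2 fold change of Rpl35a-ps6, which depends on the prior count at such low counts, was 5.39 ± 1.19. It was 3.53 without BcorΔE9-10 replicate 1 and 6.17 without BcorΔE9-10 replicate 2, where it was called (adjusted p = 0.0059, edgeR). Rpl35a-ps3 had 16 and 137 counts against 10 and 7, so that the BcorΔE9-10 library rich in one copy was poor in the other. The log2 fold change of Rpl35a-ps3 was 2.62 ± 0.96 and was 0.51 without BcorΔE9-10 replicate 2. Rpl35a-ps5 had 34 and 384 counts against 314 and 418, and its log2 fold change of -1.30 ± 0.82 was -3.75 without BcorΔE9-10 replicate 2 and -0.44 without BcorΔE9-10 replicate 1. Rpl35a stood at 203 and 168 CPM against 175 and 164 CPM, and the summed family gave a log2 fold change of -0.08 ± 0.31.

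The copies of Rpl10, a large subunit protein that joins late in subunit assembly, were lower in BcorΔE9-10 and steady between replicates. Rpl10-ps1 stood at 27.4 and 29.3 CPM against 84.1 and 75.8 CPM, which is -1.49 ± 0.31 on the log2 scale (adjusted p = 0.717, edgeR; -1.57 to -1.42 with any 1 library left out). Rpl10-ps6 stood at 37.7 and 44.7 CPM against 109 and 109 CPM (-1.41 ± 0.31; -1.53 to -1.29). Neither row overlapped between the genotypes. Rpl10 stood at 806 and 594 CPM against 619 and 736 CPM and overlapped. Rpl10-ps1 is 100% and Rpl10-ps6 99.8% identical to it.

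Rpl15-ps3, also 100% identical to its parent, stood at 80.0 and 64.6 CPM against 151 and 298 CPM. Its log2 fold change of -1.64 ± 0.41 was -1.06 without BcorWT replicate 2. Rpl15 stood at 199 and 96.7 CPM against 156 and 55.3 CPM, so the library with the most counts on the copy had the fewest on the parent, and the copy's share of the pair ran from 28.7% and 40.0% to 49.2% and 84.4%. Rpl12-ps1 stood at 3.51 and 0.978 CPM against 12.6 and 13.2 CPM (-2.52 ± 0.65), while Rpl12 was unseparated (-0.10 ± 0.33).

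Rpsa, the laminin receptor that is also a small subunit protein, had 8 copies, of which 7 were lower in BcorΔE9-10 and 1 higher by their fitted values. Those with p under 0.05 were Rpsa-ps5, Rpsa-ps9 and Rpsa-ps4. Rpsa-ps5 stood at 3.33 and 2.77 CPM against 11.4 and 10.5 CPM (-1.84 ± 0.50). Rpsa-ps9 stood at 23.3 and 23.5 CPM against 41.5 and 162 CPM, and its log2 fold change of -2.12 ± 0.59 was -0.83 without BcorWT replicate 2. The abundant copies had no p under 0.05. Rpsa-ps10 stood at 444 and 771 CPM against 413 and 618 CPM, and Rpsa-ps12 at 414 and 405 CPM against 576 and 565 CPM, with log2 fold changes of 0.24 ± 0.40 and -0.48 ± 0.32. Rpsa itself gave -0.47 ± 0.41.

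The remaining abundant members were likewise without a called difference over all 4 libraries. Rpl23a-ps3 stood at 806 and 712 CPM against 715 and 458 CPM (0.37 ± 0.36). Rps25-ps1 stood at 613 and 500 CPM against 643 and 746 CPM (-0.32 ± 0.33). Rps27a-ps2, a copy of the gene for a ubiquitin and small subunit fusion protein, stood at 458 and 344 CPM against 583 and 131 CPM (0.17 ± 0.62). Its BcorWT libraries were further apart than the genotypes, and the estimate was -0.54 without BcorWT replicate 2 and 1.61 without BcorWT replicate 1. In the latter fit it was called, with a Benjamini-Hochberg adjusted p of 0.032 in edgeR, and so were its parent Rps27a (1.52, adjusted p = 0.045) and their summed counts (1.53, adjusted p = 0.039).

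Over all cytoplasmic ribosomal protein copies, 70 of 140 were higher and 70 lower by their fitted values. Of these, 13 and 14 had p under 0.05 in the respective directions, together 19.3%. The same threshold took 1.34% of all rows as higher, 3.07% as lower and 4.42% in either direction. Of their 50 parents in the table, 31 were higher and 19 lower, and Rps6 alone had p under 0.05. The median log2 fold change was -0.01 over the copies and 0.09 over the parents. The parents with 4 or more copies were 12 in number, and copies of the same parent could run far apart. The 9 Rps12 copies ran from -0.91 to 1.82, the 4 Rps6 copies from -2.16 to 1.18, the 9 Rps19 copies from -1.13 to 1.30 and the 6 Rpl30 copies from -1.48 to 1.00. The lowest of the last, Rpl30-ps9, changed sign with the library left out, at 2.23 without BcorWT replicate 1 and -2.44 without BcorWT replicate 2 (adjusted p = 0.043 and 0.023, edgeR). The 4 Rpl7a copies ran from -0.70 to 2.83 and the 8 Rpsa copies from -2.12 to 0.24. The 9 Rpl31 copies ran from -0.62 to 0.47, the 5 Rpl17 copies from -0.48 to 0.52 and the 5 Rps15a copies from -0.11 to 0.95. The 4 Rps13 copies, from 0.03 to 0.13, and the 4 Hmgb1 copies, from 0.13 to 0.68, stayed close together.

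Copies of other genes were fewer and mostly scarce. All 5 high-mobility-group copies, whose parents encode architectural chromatin proteins, were higher by their fitted values, from 0.13 to 0.68, and none had p under 0.05. None of the 4 copies of mitochondrial ribosomal protein genes had p under 0.05, and their libraries varied widely. Mrps36-ps2 stood at 5.73 and 0.652 CPM against 3.50 and 7.34 CPM, so that its log2 fold change of -0.80 ± 0.93 was 0.06 without BcorΔE9-10 replicate 2 and -3.02 without BcorΔE9-10 replicate 1. Neither Eif1-ps1 nor Eif3s6-ps1, copies of translation initiation factor genes, had p under 0.05. None of the 8 copies of metabolic and mitochondrial genes had p under 0.05, with 5 higher and 3 lower. Pcna-ps2, a copy of the gene for the replication clamp, stood at 3.51 and 40.4 CPM against 26.3 and 3.20 CPM, with overlapping genotypes.

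Of the 50 copies outside these groups, 1 was higher and 5 lower with p under 0.05, together 12%, beside 1.34%, 3.07% and 4.42% of all rows. Rbm3-ps, a copy of the gene for a cold-inducible RNA-binding protein, had 24 and 13 counts against 2 and 3. The depth-scaled ratio of its summed counts was 5.6, with an exact 95% interval of 2.20 to 18.3 for counting error. As for Rpl35a-ps6, this interval leaves out the spread between libraries, and the row was picked out partly for its low BcorWT counts. Its parent was the other parent row with p under 0.05 beside Rps6. Rbm3 stood at 534 and 517 CPM against 348 and 254 CPM, a log2 fold change of 0.80 ± 0.33. Sms-ps, a copy of the spermine synthase gene, stood at 5.54 and 2.61 CPM against 11.1 and 19.0 CPM (-1.89 ± 0.55), while Sms gave -0.07 ± 0.31. Ftl1-ps1, from the ferritin light chain gene, stood at 44.4 and 70.7 CPM against 40.3 and 770 CPM, and its log2 fold change of -2.82 ± 1.07 was 0.51 without BcorWT replicate 2. Without BcorWT replicate 1 it was -3.74 (adjusted p = 0.0018, edgeR). Bnip3l-ps, from the gene for a mitophagy receptor, stood at 8.87 and 29.5 CPM against 29.5 and 43.8 CPM (-0.93 ± 0.54, and -0.32 without BcorΔE9-10 replicate 1).

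**Figure D4:**
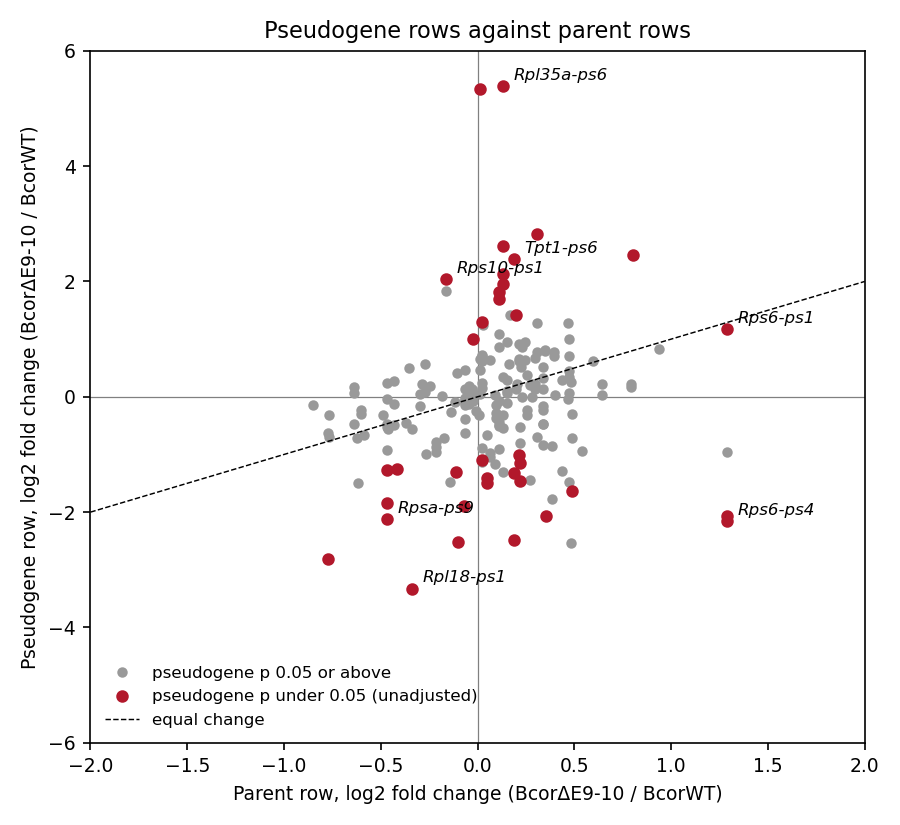
Log2 fold change (BcorΔE9-10 over BcorWT, edgeR) of each pseudogene row (vertical axis) against that of its parent by symbol (horizontal axis) for the 199 pairs, with members of unadjusted p under 0.05 in red and a dashed line for equal change. The vertical axis spans 3 times the range of the horizontal one, and the red points lie far above and below the line while the fold change of only 1 parent (Rps6, 1.29) exceeds 1 in size.

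Member and parent had fitted values of the same sign in 123 of 199 pairs. The share of a pair's counts that lay on the pseudogene does not depend on scaling between libraries and was examined for these 199 pairs. Its mean over the genotypes had a median of 6.08% and ran from 0.115% to 83.5%, and it was above 50% for 7 pairs and below 1% for 20. Both BcorΔE9-10 libraries had a larger share than both BcorWT libraries in 25 pairs (12.6%) and a smaller share in 49 pairs (24.6%). Together these were 74 of the 199 pairs. The nearest reference is the levels of all rows, of which 16.8% did not overlap as higher and 17.1% as lower. Without BcorWT replicate 1, where fewer libraries overlap less often, the counts were 73 and 77 pairs. With 2 libraries against 2, the exact two-sided permutation test cannot give a p below 0.333. The pairs named next were chosen because their shares did not overlap, so each reached that p by the choice alone.

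The shares that differed most as higher in BcorΔE9-10 included those of Rps12-ps24, Rps12-ps10, Rps10-ps1 and Rpl19-ps11. Rps12-ps24 took 49.7% and 46.5% of the pair's counts in BcorΔE9-10 and 7.65% and 33.0% in BcorWT, and Rps12-ps10 took 51.5% and 49.2% against 11.7% and 35.5%. Rps10-ps1 took 38.5% and 32.4% against 12% and 9.94%, so that each genotype was tight and the genotypes were far apart. Rpl19-ps11 took 21.9% and 48.7% against 14.4% and 14.1%. In the other direction were Rps6-ps4, Rps6-ps3, Rpl15-ps3, Rpl35a-ps5 and Bnip3l-ps. Rpl35a-ps5 took 3.0% and 27.1% against 34.3% and 32.5%, and Bnip3l-ps took 6.95% and 18.6% against 22.6% and 38.4%. The order within each genotype was uneven, since the BcorΔE9-10 libraries of both were further apart than the nearest libraries of the 2 genotypes.

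**Figure D5:**
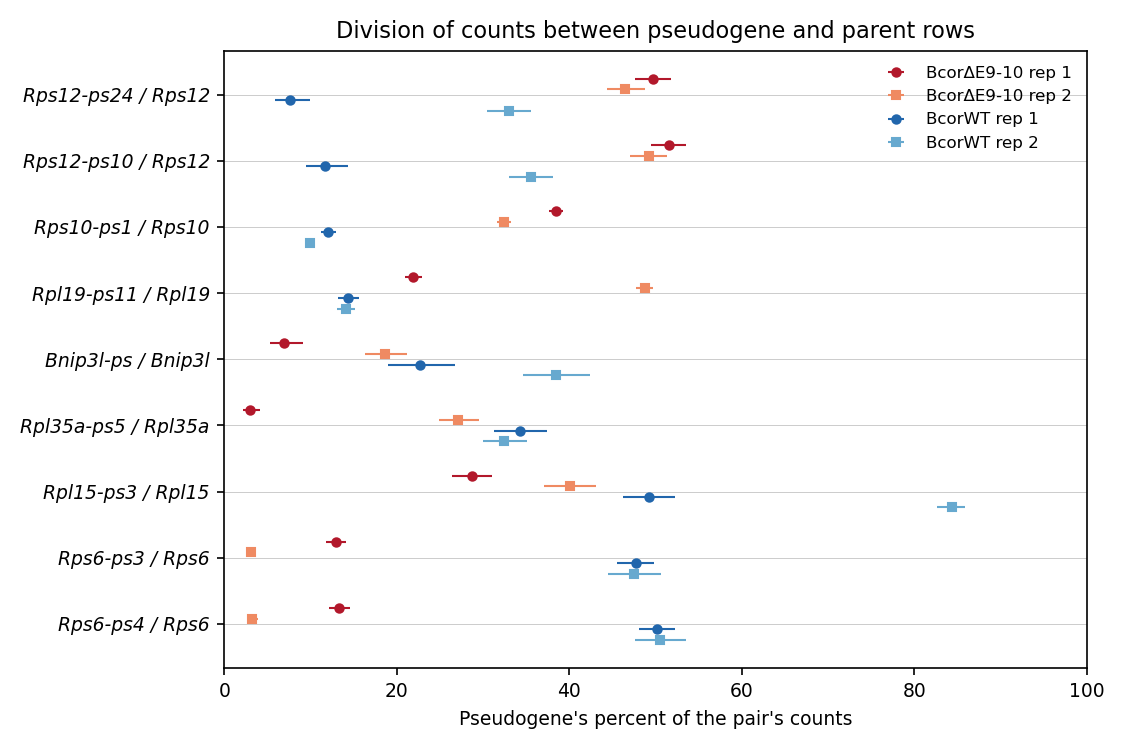
Percent of the counts of a pseudogene and parent pair that lay on the pseudogene (horizontal axis), 1 point per library with its 95% Wilson interval for counting error, for 4 of the pairs with the largest higher and the 5 with the largest lower share in BcorΔE9-10. Rps10-ps1 (38.5% and 32.4% against 12% and 9.94%) and Rps6-ps4 (13.3% and 3.20% against 50.2% and 50.6%) have the genotypes far apart.

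Adding every copy to its parent's row and refitting the whole table gave less scatter. The median size of the log2 fold change of the 98 summed families was 0.27, near the 0.26 of the parents alone and below the 0.55 of the members. Only the Ftl1 family exceeded 1 (-1.29 ± 0.61), and it stood at 0.16 without BcorWT replicate 2. The Rbm3 family alone had an unadjusted p under 0.05 (0.0416, edgeR), and the lowest adjusted p over all 4 libraries was 0.946. If reads that align to several rows were counted in each, such a sum counts a read more than once, and the sources used here do not state how these reads were treated.

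Some rows had nearly equal counts. Counts agreed within 10% in all 4 libraries for 5 pairs of copies: Cbx3-ps6 with Cbx3-ps7, Rpl17-ps8 with Rpl17-ps9, and Rps12-ps20, Rps12-ps21 and Rps12-ps22 with each other. In another 6 pairs they agreed within 10% in 3 libraries, among them Rps6-ps3 with Rps6-ps4 and Rps12-ps3 with Rps12-ps9. Whether the same reads were counted in both rows of a pair was not tested. The share of 75-base windows held in common was 84.3% for the Cbx3 pair and 40.7% for Rps6-ps3 and Rps6-ps4. Of the 106 members with at least 50% of their windows in another gene 17.9% had p under 0.05, and of the 106 with less 16% did. None of the 15 members with no shared window had p under 0.05, where 4.42% of all rows did. A count over 15 rows is too small to set apart from that share. These rows were also scarcer, with a median of 7.10 CPM against 18.4 CPM over all members. Their median differences between libraries of a genotype were 0.83 in BcorΔE9-10 and 0.86 in BcorWT.

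Copies stood apart in 1 library more often than all rows did, except as the lowest in BcorWT replicate 2 (1.41% of copies and 2.20% of all rows). In BcorΔE9-10 replicate 1, 4 members (1.88%) were more than 3-fold above every other library and 10 (4.69%) more than 3-fold below. In BcorΔE9-10 replicate 2 these were 3 and 12 members, in BcorWT replicate 1 they were 7 and 5, and in BcorWT replicate 2 they were 3 and 3. Over all rows, the corresponding percentages ran from 0.0746% to 0.920% above and from 0.547% to 2.20% below. Among the 98 parents there were 0 above and 1 below.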

How the data were processed

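RNA of sorted KL cells from 2 BcorΔE9-10 and 2 BcorWT transplants was sequenced from the 3′ end in 75-base single-end reads. Per the labels and the study's methods, the authors trimmed reads with cutadapt (1.7 in the submitters' processing notes), used HISAT2 for alignment to mm10 and featureCounts for counting. The deposited table holds raw counts per gene symbol. In 2 of the 4 columns all counts are whole. The other 2 were handled like estimated counts and rounded before testing, because the row Gm4430 is not whole in them as deposited by the authors. The handling of multi-mapped reads and of strand is not given in the sources used here. Library totals were 3825289.5 to 6253100.5, and counting intervals cover counting error only.

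All rows were fitted together with edgeR 4.0.16 (filterByExpr, which removed 0 rows, TMM, glmQLFit and glmQLFTest, prior count 0.125, Benjamini-Hochberg over all rows) in R 4.3.3. Standard errors are the log2 fold change over the square root of F. limma-voom (limma 3.58.1) and DESeq2 1.42.0 were alternatives. The scripts were tested on simulated counts. Positions and sequences came from GENCODE M21 (GRCm38), and identities from blastn 2.17.0 with at least 50% of the pseudogene aligned. Differences between libraries of a genotype used log2 CPM with a prior count of 2. Named rows are the 12 lowest p in each direction under 0.05, the 10 most abundant, the 5 largest share differences in each direction, rows at 3 counts or fewer in a genotype, Tpt1-ps5 and Mrps36-ps2, and their parents. Some items under this rule are not reported here. Rps10-ps2, Ftl1-ps1, Pcna-ps2, Rpsa-ps4, Csnk2a1-ps and Rpl30-ps9 were named after their values were seen. Members and lists were chosen with earlier results of these data known.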

Additional observations from a re-analysis of the deposited data

How the results depend on the processing

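Removing the filter, a prior count of 2, DESeq2's size factors or leaving Gm42418 out of the library sizes gave the same count of members at an adjusted p of 0.05, namely 0, as did limma-voom. The count was 1 with at least 10 counts in every library, 1 with a replicate block and 8 with DESeq2, where 5, 14 and 43 of all rows passed. Leaving out 1 library gave 0 to 18 members and 6 to 596 of all rows. At an unadjusted p of 0.05, leave-one-out counts ran from 13 to 37 as higher and from 21 to 28 as lower, while 243 to 3013 of all rows passed. The 37 came without BcorWT replicate 1, where 25% of all rows passed. Members whose groups did not overlap ran from 58 to 74 as higher and from 62 to 88 as lower (27.2% to 34.7% and 29.1% to 41.3%), beside 28.6% to 41% and 29.6% to 40.5% of all rows. Pairs of non-overlapping share ran from 44 to 73 and from 71 to 94, since 2 libraries against 1 overlap less often. The closest coding gene in place of the parent gave 26 and 51 pairs, an alternative chosen after seeing the data. The median log2 fold change without 1 library ran from -0.20 to 0.11 over members, from -0.039 to 0.14 over parents and from -0.041 to 0.025 over all rows. Over all rows it was -0.012 with the replicate block, -0.0035 with limma-voom and -0.040 without Gm42418.

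The replicate numbers did not pair the libraries (correlation of deviations -0.0945). With the replicate block, Rpl18-ps1 had an adjusted p of 0.00868 in edgeR. Among parents near 0, Rps25 became -0.00062 with the block and -0.0070 without Gm42418. Leaving out 1 library changed the sign of these log2 fold changes among members named by the rule, with the ranges given: Mrps36-ps2 -3.02 to 0.063, Rps12-ps3 -0.32 to 0.17, Rps27a-ps2 -0.54 to 1.61, Rpsa-ps10 -0.21 to 0.58. Among members named after their values were seen, it did so for Ftl1-ps1 (-3.74 to 0.51), Rpl30-ps9 (-2.44 to 2.23), Rps10-ps2 (-1.27 to 2.75), Pcna-ps2 (-2.03 to 2.78), Rpl7a-ps10 (-1.71 to 4.47), Mrpl23-ps1 (-2.32 to 1.88) and Smarce1-ps1 (-3.96 to 0.78). For the summed families of members named by the rule, Mrps36 ran from -0.43 to 0.29, Rps25 from -0.24 to 0.059 and Rps6 from -0.14 to 1.00. Other families also changed sign, among them Ftl1 (-2.01 to 0.16), Rpl17 (-0.42 to 0.77), Rps19 (-0.33 to 0.32) and Rpl31 (-0.24 to 0.21). For the parents of members named by the rule, Rpl10 ran from -0.19 to 0.25, Rpl12 from -0.21 to 0.019, Rpl15 from -0.12 to 1.41, Rpl35a from -0.012 to 0.27, Rpl7a from -0.12 to 0.89, Rps10 from -0.42 to 0.14, Rps12 from -0.0081 to 0.23, Rps25 from -0.14 to 0.15, Rpsa from -0.85 to 0.048 and Sms from -0.17 to 0.029. The cause was not tested. Under 10 counts in at least 1 library were held by 37 members.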

Other observations

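Several members, some of them mentioned above, differed widely between libraries of a genotype, and they were picked out after their values were seen. Mrpl23-ps1, a copy of a mitochondrial ribosomal protein gene, had 19 and 224 counts in BcorΔE9-10 and 104 and 29 in BcorWT. Smarce1-ps1, a copy of a gene for a BAF chromatin remodelling subunit, had 7 and 146 counts against 118 and 39. Rpl7a-ps10 had 22 and 378 counts against 5 and 132. Rpl27-ps1 had 124 and 1239 counts against 995 and 922, and Rpl30-ps9 had 126 and 86 counts against 346 and 21. Each of these rows overlapped between the genotypes.

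Atp5l2-ps was one of the members whose closest coding gene was not its named parent, and it was picked out after the values of that gene were seen. It aligned over its whole length to Atp5l, a subunit gene of the mitochondrial ATP synthase, at 99.4% identity. The pseudogene row stood at 281 and 242 CPM in BcorΔE9-10 and at 268 and 292 CPM in BcorWT, so that its genotypes overlapped (log2 fold change -0.10 ± 0.31). Atp5l stood at 330 and 261 CPM in BcorΔE9-10 and at 11.4 and 26.2 CPM in BcorWT, a log2 fold change of 3.96 ± 0.48. The pseudogene took 46.0% and 48.1% of the counts of the 2 rows in BcorΔE9-10 and 95.9% and 91.8% in BcorWT. Whether reads were divided differently between the 2 rows was not tested.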
